A study of Mus musculus with 6 samples.

Results

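The transcripts of 10 genes were followed here: the Toll-like receptors Tlr1, Tlr2, Tlr3, Tlr4, Tlr7, Tlr9 and Tlr13, the lipopolysaccharide co-receptor Cd14, the signalling adaptor Myd88 and the receptor chaperone Unc93b1. They were chosen by gene symbol with earlier results of these data known, so counts over them are descriptions. All 10 had a row in the deposited table of 30707 genes. RNA was sequenced from the hippocampus of mice that received either a virus that knocks down SFRS8 (the older name of Sfswap, a regulator of pre-mRNA splicing) or a control virus, with 3 samples in each group. Every animal therefore carried a virus, and the labels give no strain, age, sex, virus type, injection site or interval to collection. Whether the 3 libraries of a group stem from different animals is not stated; the p-values reflect sample-to-sample spread alone, and part of that spread may be technical.

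Toll-like receptors are membrane proteins that bind molecules typical of microbes, and some also respond to material released from damaged cells. Tlr1, Tlr2 and Tlr4 act at the cell surface, whereas Tlr3, Tlr7, Tlr9 and Tlr13 sense nucleic acids inside endosomes, where they are delivered by Unc93b1. All of these receptors except Tlr3 signal through Myd88 to NF-kB and interferon regulatory factors; Tlr3 uses another adaptor, Ticam1. In the brain, microglia are the main cells that express most of these receptors, and Tlr3 is also known from astrocytes.

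Values are FPKM (fragments per kilobase of exon, scaled to sequencing depth), a unit per length in which levels of different genes can be set side by side. Back-calculated from the FPKM values, with their common step taken as 1 read, the libraries behind them held 16622948 to 18097344 reads. Sfswap had 9.79, 11.3 and 9.58 FPKM in the knockdown samples and 16.7, 18.5 and 19.2 FPKM in the controls, and its log2 fold change was −0.77 (SE 0.09, adjusted p = 0.0432 by limma). Calls at this threshold depended on single libraries: leaving out knockdown sample 1 or 3 or any control put the adjusted p of Sfswap above 0.05, and 0 to 16 genes were then called higher. Each other gene described as having risen in this test lost its call in the same fits, except that Aqp4 kept it without knockdown sample 3, and Npepl1 and Gltp also lost it without knockdown sample 2. Neuronal markers such as Snap25 were abundant in all 6 samples, and the summed level of 10 neuron markers was 872 to 1028 FPKM in the knockdown samples and 1038 to 1059 FPKM in the controls. Of these 10, 2 had positive log2 fold changes and 3 were lower without overlap, beside 1657 of 14012 genes tested by limma. Snap25 was among the 3, at 0.779 times the control mean. Transcripts of the choroid plexus, a secretory tissue beside the hippocampus, were uneven: Ttr stood at 4523, 4208 and 1151 FPKM in the knockdown samples and at 43.2, 60.2 and 2983 FPKM in the controls.

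All 10 genes had a higher mean in the knockdown hippocampus, at 1.46 to 2.63 times the control mean, with a median ratio of 1.76. In 8 of the 10, every knockdown sample lay above every control sample, and Tlr7 and Tlr9 were the exceptions. The same separation was found in 15.7% of 21829 genes whose mean reached 0.1 FPKM, a level that all 10 genes exceeded in both groups. The main test, limma on log2(FPKM + 1) over the 14012 genes whose mean reached 1 FPKM, could be applied to 8 of the 10 and called none of them at an adjusted p under 0.05. Over all genes it called 1.20% higher and 0.228% lower in the knockdown samples. At an unadjusted p under 0.05, 6 of the 8 were higher, beside 15.7% of all genes tested. The same 6 did not overlap between groups, beside 18.0% of all genes tested. Tlr13 reached the filter only through its knockdown values, since its control mean was 0.913 FPKM. For this reason, and because the 10 genes were chosen with earlier results known, these counts over 8 and 10 genes are descriptions. Tlr1 and Tlr4 were below the filter.

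**Figure D1:**
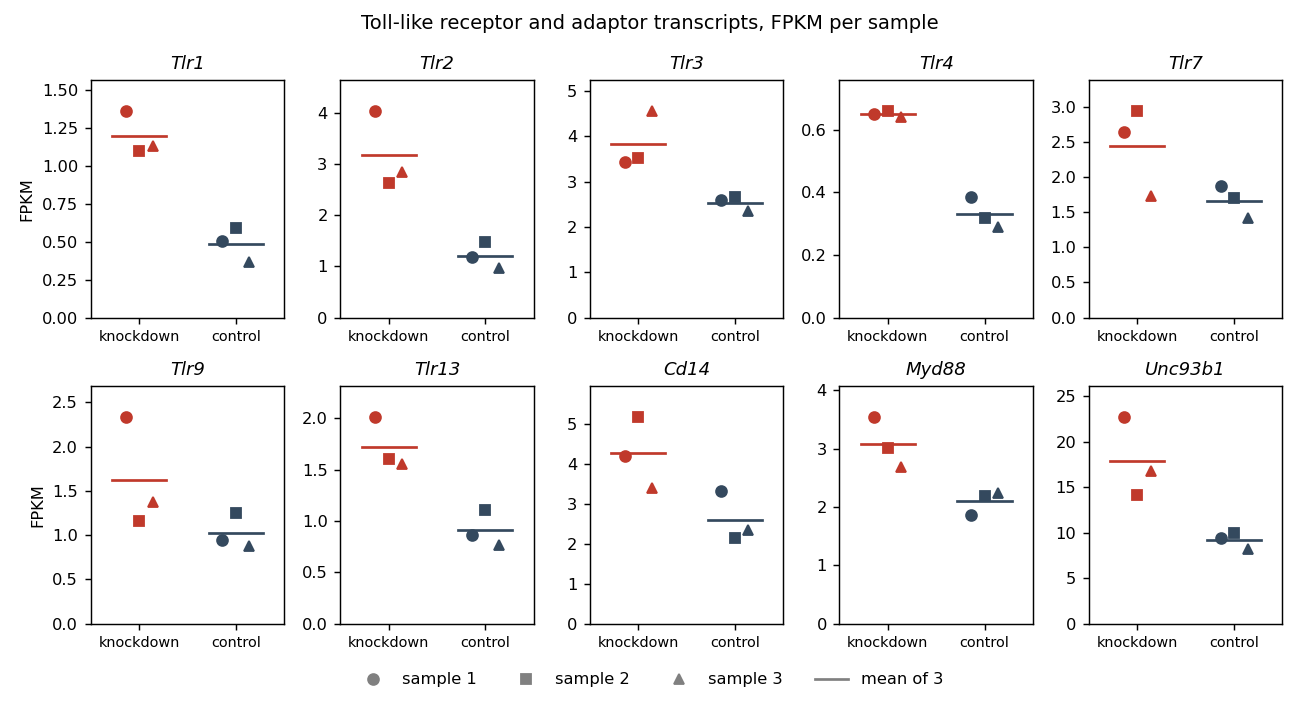
FPKM of each of the 10 genes (vertical axis, starting at 0, with its own scale in each panel) in the 3 knockdown samples (red, left) and the 3 control samples (dark blue, right); symbols mark the sample number within a group, which pairs no samples, and lines mark group means. The groups are apart in 8 panels and overlap for Tlr7 and Tlr9.

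Among the surface receptors, Tlr2 showed the highest ratio of all 10 genes. Tlr2 (ENSMUSG00000027995, mm10 chr3:83836272-83841767, minus strand), which pairs with Tlr1 or Tlr6 to bind bacterial lipopeptides, had 4.04, 2.63 and 2.84 FPKM in the knockdown samples and 1.17, 1.49 and 0.960 FPKM in the controls. The lowest knockdown sample was thus well above the highest control sample, and knockdown sample 1 stood above the others. The group means were 3.17 ± 0.761 and 1.21 ± 0.264 FPKM (SD, n = 3 each), a ratio of 2.63. The log2 fold change on log2(FPKM + 1) was 0.91 (SE 0.16), and its adjusted p of 0.05003 by limma missed the threshold of 0.05 narrowly. These levels rested on 216, 132 and 149 reads in the knockdown samples and on 61, 81 and 52 reads in the controls.

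Tlr1 (ENSMUSG00000044827, chr5:64924679-64933563, minus strand), the partner of Tlr2, followed closely. It had 1.37, 1.10 and 1.13 FPKM in the knockdown samples and 0.503, 0.595 and 0.366 FPKM in the controls, and the groups did not overlap. The means were 1.20 ± 0.146 and 0.488 ± 0.115 FPKM (SD, n = 3 each), a ratio of 2.46 that rested on 61 to 81 reads per knockdown sample and 22 to 36 reads per control sample. The exact two-sided permutation test gave p = 0.1 for Tlr1, which is the smallest that 3 samples against 3 can give, and the same value for the other 7 genes without overlap.

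Tlr4 (ENSMUSG00000039005, chr4:66827584-66930284, plus strand), the receptor for lipopolysaccharide, was the lowest of the 10 in level and the most even within the knockdown group. It had 0.650, 0.660 and 0.640 FPKM in the knockdown samples and 0.386, 0.318 and 0.290 FPKM in the controls, a ratio of 1.96. The 6 libraries held only 29 to 64 reads of it. Cd14 (ENSMUSG00000051439, chr18:36725074-36726736, minus strand), which hands lipopolysaccharide to Tlr4, had 4.20, 5.17 and 3.39 FPKM in the knockdown samples and 3.32, 2.14 and 2.34 FPKM in the controls. The groups nearly met, with knockdown sample 3 just above control sample 1. Its log2 fold change was 0.55 (SE 0.17, adjusted p = 0.120 by limma) at a ratio of 1.64. Another part of that complex, Ly96, which binds the lipid directly, did not separate: it had 0.829, 0.943 and 0.787 FPKM in the knockdown samples and 1.14, 0.704 and 0.327 FPKM in the controls.

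Of the endosomal receptors, Tlr13 and Tlr3 were apart between groups and Tlr7 and Tlr9 were not. Tlr13 (ENSMUSG00000033777, chrX:106143204-106160493, plus strand), a mouse receptor for bacterial ribosomal RNA that humans lack, had 2.02, 1.60 and 1.56 FPKM in the knockdown samples and 0.866, 1.11 and 0.763 FPKM in the controls. Its ratio was 1.89, and its log2 fold change was 0.51 (SE 0.13, adjusted p = 0.0848 by limma). Tlr3 (ENSMUSG00000031639, chr8:45395665-45411080, minus strand), which binds double-stranded RNA, had 3.42, 3.52 and 4.56 FPKM in the knockdown samples and 2.60, 2.66 and 2.35 FPKM in the controls. It was the only gene of the 10 that was highest in knockdown sample 3. Its log2 fold change was 0.44 (SE 0.11, adjusted p = 0.0834 by limma) at a ratio of 1.51. An antisense gene, Gm45542, shares 381 exonic bases with Tlr3, or 7.32% of its exons, and was not analysed here.

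Tlr7 (ENSMUSG00000044583, chrX:167304929-167330558, minus strand), a receptor for single-stranded RNA, had 2.64, 2.95 and 1.73 FPKM in the knockdown samples and 1.88, 1.71 and 1.42 FPKM in the controls. Knockdown sample 3 fell among the controls, so the groups overlapped (log2 fold change 0.35, SE 0.16, adjusted p = 0.239 by limma). Tlr9 (ENSMUSG00000045322, chr9:106222598-106226883, plus strand), which recognises unmethylated CpG DNA, had 2.34, 1.16 and 1.37 FPKM in the knockdown samples and 0.951, 1.26 and 0.880 FPKM in the controls. Knockdown sample 1 stood alone there. Without that sample the log2 fold change of Tlr9 was 0.16, against 0.35 with it (SE 0.19, adjusted p = 0.311 by limma).

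Unc93b1 (ENSMUSG00000036908, chr19:3935186-3949340, plus strand), the chaperone of the endosomal receptors, was the most abundant of the 10. It had 22.7, 14.1 and 16.8 FPKM in the knockdown samples and 9.37, 9.98 and 8.25 FPKM in the controls. All 3 knockdown samples were higher than any control, with means of 17.9 ± 4.40 and 9.20 ± 0.878 FPKM (SD, n = 3 each). The ratio was 1.94 and the log2 fold change 0.87 (SE 0.17, adjusted p = 0.0511 by limma). At about 449 reads or more in every library, this was also the best-sampled gene.

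Myd88 (ENSMUSG00000032508, chr9:119335934-119341411, minus strand), the adaptor shared by most of the receptors, had one of the lower ratios, 1.47. It had 3.55, 3.01 and 2.69 FPKM in the knockdown samples and 1.87, 2.19 and 2.25 FPKM in the controls, without overlap (log2 fold change 0.39, SE 0.11, adjusted p = 0.104 by limma). The 5′ parts of Myd88 and of Acaa1a, which runs the other way on the opposite strand, share 290 exonic bases, which is 11.3% of the exons of Myd88, and the labels record no step that keeps strands apart. Acaa1a, a peroxisomal thiolase, had 15.2, 14.4 and 13.9 FPKM in the knockdown samples and 16.3, 13.9 and 17.1 FPKM in the controls, and its part in the Myd88 value was not tested.

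The pseudocount of 1 compresses differences at these low levels, so the reads themselves were also fitted. With limma's voom on reads recovered from the FPKM values, all 10 genes could be tested among 17022 genes whose mean reached 10 reads, and 4 of the 10 were called higher, beside 3.80% of all genes. In that fit Tlr2 rose with a log2 fold change of 1.39 (SE 0.25, adjusted p = 0.0332), and Tlr1 with 1.31 (SE 0.26, adjusted p = 0.0380). Unc93b1 rose by 0.94 (SE 0.18, adjusted p = 0.0337) and Tlr13 by 0.92 (SE 0.21, adjusted p = 0.0490). Tlr4 stood at 0.97 (SE 0.23, adjusted p = 0.0518), and the remaining 5 genes at 0.52 to 0.71. The median of the 10 was 0.82, against 0.04 over all genes of this fit.

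**Figure D2:**
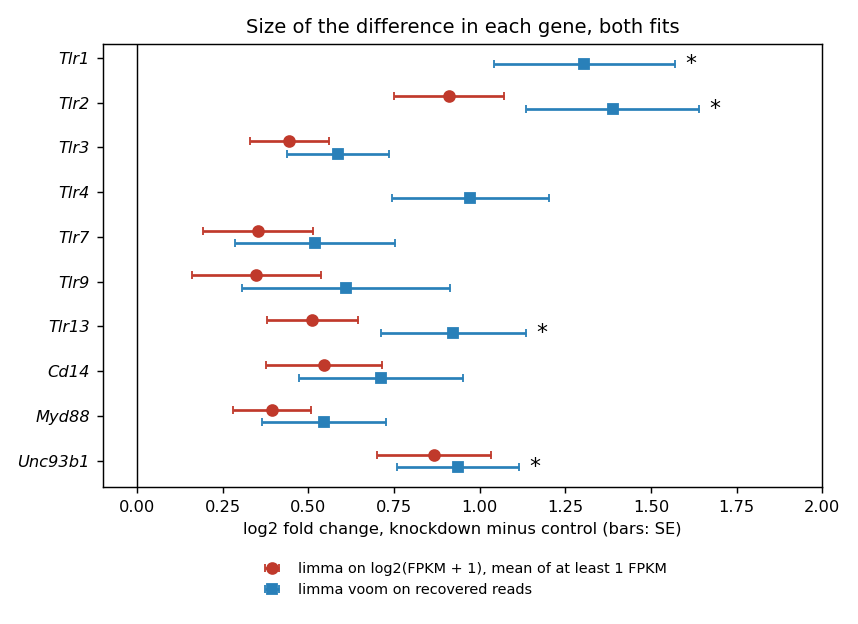
Log2 fold change, knockdown minus control, with its SE (horizontal axis) for each gene, from limma on log2(FPKM + 1) (red circles, 8 genes) and from limma's voom on recovered reads (blue squares, 10 genes); stars mark an adjusted p under 0.05. Only voom estimates carry stars, at Tlr1, Tlr2, Tlr13 and Unc93b1, and Tlr1 and Tlr4 have no red point because their means were under 1 FPKM.

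The stretches of 250 bases upstream of the transcription start were compared for 6 of the 10 genes, from RefSeq promoters on GRCm38.p6 (Tlr1, Tlr2, Tlr3, Tlr9, Tlr13 and Myd88). The letters GAGGAAG, a core of sites of the myeloid factor PU.1, occurred on either strand in 3 of the 6 (Tlr1, Tlr9 and Tlr13), beside 10.6% of 32817 promoters. The looser NF-kB pattern GGGNNNNNCC occurred in Tlr2 and Tlr3, beside 45.8% of promoters. The interferon-response pattern GAAANNGAAA occurred in Myd88 alone, 40 bases upstream of its start, beside 2.97%. The AP-1 pattern TGANTCA was found in Tlr9 alone, beside 6.75%, and TATAAA in Myd88 alone, beside 12.4%. These are letter matches in 1 window per gene, and no binding was measured.

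The upstream stretches of Tlr2 and its partner Tlr1, which had the highest ratios, and of Tlr13 are shown 5′ to 3′ on the strand of the gene, ending at the base before the transcription start. Capitals mark GAGGAAG in Tlr1 (starting 23 bases upstream) and Tlr13 (83 bases upstream), and 2 overlapping matches to GGGNNNNNCC in Tlr2 (from 173 bases upstream). The stretches lie at chr3:83841609-83841858 (Tlr2), chr5:64933559-64933808 (Tlr1) and chrX:106143025-106143274 (Tlr13).
Tlr2: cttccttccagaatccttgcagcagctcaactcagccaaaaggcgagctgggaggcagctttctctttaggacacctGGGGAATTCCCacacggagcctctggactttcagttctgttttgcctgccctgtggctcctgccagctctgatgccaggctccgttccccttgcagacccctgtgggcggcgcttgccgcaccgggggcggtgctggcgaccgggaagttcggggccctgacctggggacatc
Tlr1: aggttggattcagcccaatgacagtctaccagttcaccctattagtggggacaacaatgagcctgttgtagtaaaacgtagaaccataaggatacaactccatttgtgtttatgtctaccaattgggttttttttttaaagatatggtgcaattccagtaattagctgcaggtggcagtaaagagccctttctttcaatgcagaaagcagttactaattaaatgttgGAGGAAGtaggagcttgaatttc
Tlr13: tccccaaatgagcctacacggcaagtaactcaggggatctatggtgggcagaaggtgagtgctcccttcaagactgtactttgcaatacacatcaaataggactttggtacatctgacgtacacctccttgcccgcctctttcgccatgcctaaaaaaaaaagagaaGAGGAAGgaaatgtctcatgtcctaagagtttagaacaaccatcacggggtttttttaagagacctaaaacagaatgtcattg

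The samples of the knockdown group did not contribute evenly. Of the 10 genes, 6 were highest in knockdown sample 1, 3 in knockdown sample 2 and 1 in knockdown sample 3. Relative to the control mean, Tlr2 stood at 3.35, 2.18 and 2.35 in knockdown samples 1 to 3 and Unc93b1 at 2.47, 1.54 and 1.82, whereas Tlr4 was level at 1.96, 1.99 and 1.93. Knockdown sample 1 was also highest in markers of microglia, the resident macrophages of the brain. The geometric mean of 20 such markers was 18.3, 13.3 and 13.3 FPKM in the knockdown samples and 10.6, 10.5 and 9.08 FPKM in the controls. Among the controls, sample 3 was the lowest in 8 of the 10 genes, and it was the control with the high choroid plexus transcripts.

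**Figure D3:**
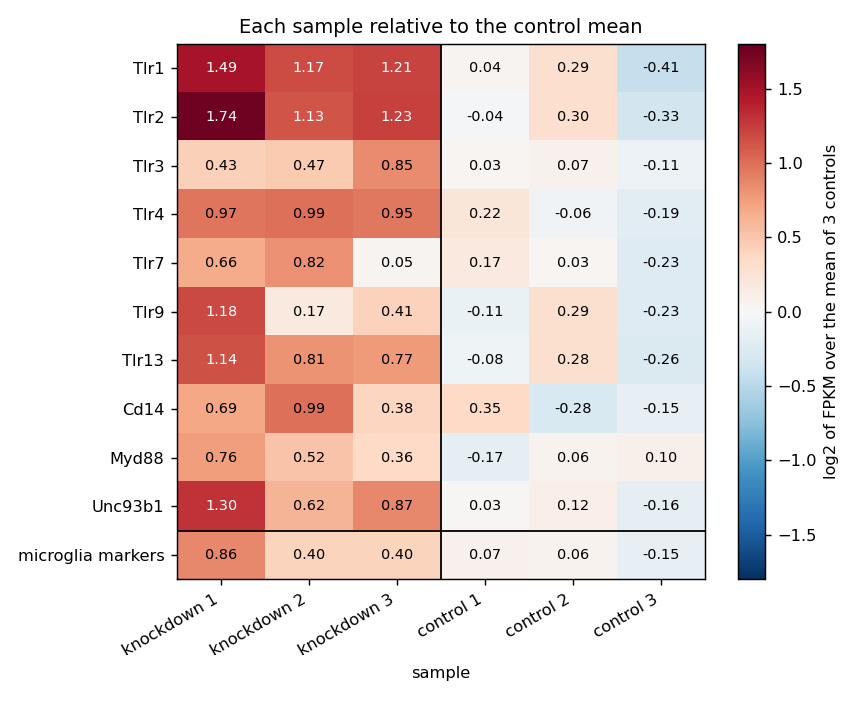
Log2 of each sample's FPKM over the mean of the 3 controls (colour and printed value) for the 10 genes and, below the line, for the geometric mean of 20 microglia markers; knockdown samples are left of the vertical line and controls right of it. Knockdown sample 1 holds the highest values for Tlr2 (1.74) and Tlr1 (1.49) and for the microglia markers (0.86), while Tlr4 is even across the knockdown samples (0.97, 0.99 and 0.95).

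Microglia markers were higher beside the receptors. Of the 20, 19 had a positive log2 fold change, beside 7449 of all 14012 genes tested. Without overlap between groups, 15 of the 20 were higher, beside 18.0% of all genes tested. The median was 0.54, against 0.02 over all genes tested. Olfml3, a secreted protein of microglia, rose (log2 fold change 0.73, adjusted p = 0.0472 by limma). Of the 20 markers it was the only 1 called, beside 1.20% of all genes tested called higher. P2ry13, Tmem119 and Aif1 stood at 1.56, 1.45 and 1.74 times the control mean. More microglia and more of these transcripts per microglial cell cannot be told apart in bulk tissue.

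Dividing each gene by the microglia marker mean of the same sample left 4 of the 10 genes higher without overlap between groups. After the same division 2.18% of the 21829 genes were higher without overlap and 45.5% were lower without overlap. Tlr2 amounted to 22.1%, 19.8% and 21.4% of that mean in the knockdown samples and to 11.1%, 14.1% and 10.6% in the controls, a ratio of 1.77. Tlr1 gave 7.46%, 8.26% and 8.53% in the knockdown samples and 4.74%, 5.64% and 4.03% in the controls, a ratio of 1.68. Unc93b1 gave 124%, 106% and 126% in the knockdown samples and 88.4%, 94.7% and 90.8% in the controls, a ratio of 1.30. The separation was narrowest for Tlr13, at 11.0%, 12.1% and 11.7% in the knockdown samples and 8.16%, 10.5% and 8.40% in the controls. Each of these 4 had an exact two-sided permutation p of 0.1, the smallest possible.

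For the other 6 genes the groups overlapped after this division. Tlr3, Tlr7, Tlr9 and Myd88 came to ratios of 1.05, 1.00, 1.04 and 0.988, Cd14 to 1.13 and Tlr4 to 1.35. When the mean log2 level of the microglia markers was subtracted from every gene before the fit, the median of all 14012 genes moved to −0.49, and no receptor or adaptor was called. Tlr3, Tlr7, Tlr9 and Myd88 then had differences of −0.060, −0.15, −0.16 and −0.11, below zero but above that median. Tlr2 had a log2 fold change of 0.41 (adjusted p = 0.139 by limma) and Unc93b1 0.36 (adjusted p = 0.120 by limma).

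**Figure D4:**
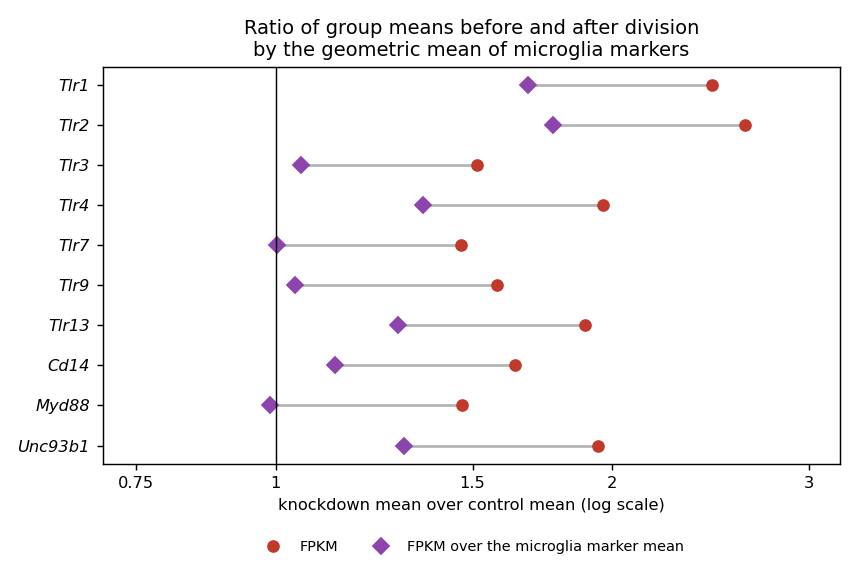
Ratio of the knockdown mean to the control mean (horizontal axis, log scale) for each gene in FPKM (red circles) and after division by the geometric mean of 20 microglia markers of the same sample (purple diamonds). All diamonds lie left of their circles; Tlr2 (1.77) and Tlr1 (1.68) stay farthest from 1, and Tlr7 (1.00) and Myd88 (0.988) lie at it.

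The other 5 Toll-like receptors of the mouse were too low for the main test. Tlr12, which recognises a parasite profilin, had 1.01, 0.568 and 0.614 FPKM in the knockdown samples and 0.164, 0.487 and 0.175 FPKM in the controls. Tlr8 had 0.362, 0.419 and 0.320 FPKM in the knockdown samples and 0.178, 0.108 and 0.0466 FPKM in the controls, and Tlr6, another partner of Tlr2, had 0.454, 0.323 and 0.339 FPKM in the knockdown samples and 0.156, 0.282 and 0.164 FPKM in the controls. The knockdown samples were above the controls in all 3. The same held for Tlr5, the flagellin receptor, at 0.0754 to 0.216 FPKM in the knockdown samples and 0.0349 to 0.0727 FPKM in the controls. Among 21829 genes whose mean reached 0.1 FPKM, 15.7% were higher without overlap. Tlr5 was below that mean, with 10, 6 and 18 reads in the knockdown samples and 6, 4 and 3 in the controls. Tlr11 was listed at 0 in 1 sample of each group.

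Co-receptors and chaperones of the pathway were higher in part. All 9 tested members of that list had positive log2 fold changes and none was called, with a median of 0.53; 5 did not overlap between groups, beside 18.0% of all genes tested. The chaperone Cnpy3, at 1.01 times the control mean, was flat and changed sign under several scalings, and the endosomal transporter Slc15a4 stood at 1.14 times with overlap. Cd180, a receptor relative of Tlr4 that works with Ly86, stood at 4.22, 1.85 and 2.53 FPKM in the knockdown samples and 0.823, 1.50 and 0.864 FPKM in the controls, and Ly86 at 1.88 times the control mean. The endosomal protease Lgmn and the chaperone Hsp90b1 stood at 1.47 and 1.37 times the control mean. Lists of the pathway were drawn up for this comparison, also with earlier results of these data known. The medians that follow are on log2(FPKM + 1), beside 0.02 over all genes tested. Of all 14012 genes tested, 7449 had positive log2 fold changes and 1.20% were called higher.

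Proximal signalling genes, which carry the signal from the receptor complex to its kinases, differed little as a list among those tested. Of 16 tested genes none was called in either direction, 10 had positive log2 fold changes, and the median was 0.01. Of the 16, 3 were higher without overlap, beside 18.0% of all genes tested. Tab2, which links TRAF6 to the kinase TAK1, was nearest the threshold at 1.48 times the control mean (log2 fold change 0.53, SE 0.09, adjusted p = 0.05003 by limma). The Tlr3 adaptor Ticam1 stood at 5.05, 3.86 and 4.79 FPKM in the knockdown samples and 2.99, 3.23 and 3.29 FPKM in the controls, and the ubiquitin ligase Peli1 at 1.19 times the control mean. Below the filter, Ticam2, Ikbke and Irak4 were higher without overlap, at 3.98, 2.62 and 1.20 times their control means. The same held for 15.7% of the 21829 genes whose mean reached 0.1 FPKM. Tirap overlapped, at 1.41 times. Ticam2 rested on about 32 to 37 reads in the knockdown samples and 4 to 13 in the controls.

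NF-kB and interferon regulatory factors had a median of 0.31 over 9 tested genes, all positive and none called. Of the 9, 5 were higher without overlap, beside 18.0% of all genes tested. Among these 5, Nfkb2, Irf1, Irf5 and Irf8 stood at 1.79, 1.59, 1.57 and 1.98 times their control means. The rest of the 9 overlapped, at 1.07 to 1.39 times their control means. Negative regulators of the pathway had a median of 0.12 over 12 tested genes, 9 of them positive and none called. Of the 12, only Nfkbie, an inhibitor of NF-kB, was higher without overlap, beside 18.0% of all genes tested. Nfkbie stood at 1.75 times its control mean, and the phosphatase Dusp1 at 1.38 times with overlap. Below the filter, Sigirr, Irak3 and Zc3h12a were higher without overlap, at 2.20, 1.76 and 1.57 times their control means. The same held for 15.7% of the 21829 genes whose mean reached 0.1 FPKM. Cd300lf overlapped, at 1.42 times.

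Genes induced by these pathways were divided. Of 24 listed, 10 could be tested, with a median of 0.21. Vcam1, an adhesion molecule that binds leukocytes, rose to 10.1, 9.68 and 8.80 FPKM in the knockdown samples, against 4.11, 3.76 and 5.21 FPKM in the controls (log2 fold change 0.98, SE 0.12, adjusted p = 0.0432 by limma). Of the 10, it was the only one called, beside 1.20% of all genes tested called higher. It is also made by endothelium and astrocytes. Endothelial markers were higher without overlap in 8 of 10, beside 18.0% of all genes tested, and Pecam1 rose to 1.74 times the control mean (adjusted p = 0.0432 by limma). Astrocyte markers were divided, with a median of 0.09: 3 of 10 were higher without overlap and Aldoc was lower without overlap, at 0.740 times the control mean. The water channel Aqp4 rose to 2.64 times (adjusted p = 0.0452 by limma) and the gap junction gene Gja1 to 1.70 times (adjusted p = 0.0432 by limma), while Gfap, S100b, Slc1a2, Slc1a3, Gjb6 and Aldh1l1 stood at 1.05 to 1.09 times the control mean. Icam1, another adhesion molecule, stood at 2.22 times the control mean. Ccl3, a chemokine of microglia, stood at 1.77 times with overlap, and Lcn2, a secreted lipocalin induced in reactive astrocytes, at 0.448 times the control mean.

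The classical cytokine targets were near the limit of detection. Tnf had 0.447, 0.330 and 0.175 FPKM in the knockdown samples and 0.0354, 0.0674 and 0.102 FPKM in the controls, so its groups did not overlap. Il1b had 0.266, 0.0946 and 0.0602 FPKM in the knockdown samples and 0.122, 0.435 and 0.175 FPKM in the controls, and Il6 stayed at or below 0.0717 FPKM in all 6. Tnf rested on 13, 9 and 5 reads in the knockdown samples and on 1, 2 and 3 reads in the controls. At these depths 3 reads, an approximate upper limit for a count of 0, correspond to 0.166 to 0.180 FPKM on 1 kb of exons. The exons of Tnf, Il1b and Il6 span 1639, 1907 and 2428 bases, so 3 reads correspond to lower values there. This limit covers counting error only.

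Receptors of the interleukin-1 family also signal through Myd88. Of their list 4 genes could be tested, the receptor subunits Il1r1 and Il1rap and the ligands Il18 and Il33; only Il33 was positive, at 1.10 times the control mean, none was called, and the median was −0.22. Il1rap, the shared receptor subunit, had 4.47, 5.47 and 5.55 FPKM in the knockdown samples and 6.18, 6.77 and 5.76 FPKM in the controls, and Il1r1 and Il18 stood at 0.754 and 0.852 times their control means. Of the receptors below the filter, Il18r1 was barely higher without overlap, beside 15.7% of the 21829 genes whose mean reached 0.1 FPKM. It had 0.164, 0.425 and 0.250 FPKM in the knockdown samples, from 14, 34 and 21 reads. The controls had 0.157, 0.161 and 0.0462 FPKM, from 13, 14 and 4 reads. Il1r2, Il1rl1, Il1rl2 and Il18rap overlapped, at 1.14 to 1.29 times their control means. Whether genes of this family differed from the Toll-like receptors was not tested. Other innate sensors had a median of 0.41 over 9 tested genes, all positive and none called; among them Mavs, the mitochondrial adaptor for RNA sensing, stood at 1.43 times, Tmem173 (STING) at 1.99 times, Nod1 at 1.95 times and Ifih1 at 1.50 times the control mean.

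**Figure D5:**
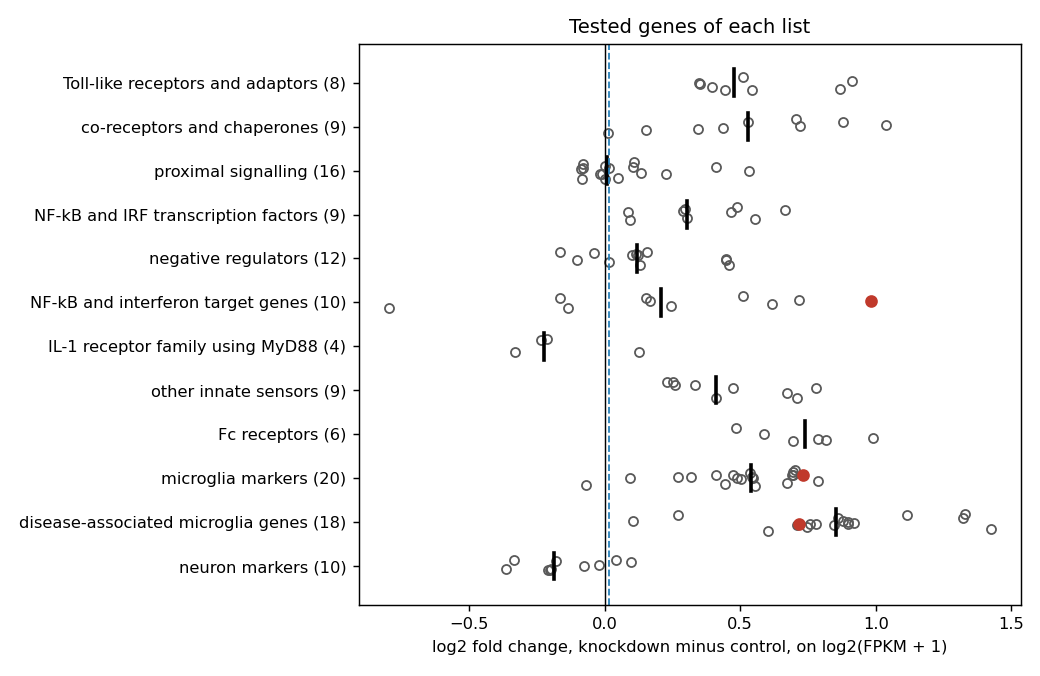
Log2 fold change (knockdown minus control, on log2(FPKM + 1)) of each tested gene, by list, with the number tested in brackets; filled red points are genes called at an adjusted p under 0.05, thick bars are list medians and the dashed line is the median of all genes tested. Receptors and adaptors (median 0.48) lie to the right of zero, proximal signalling genes (0.01) around it, and the tested interleukin-1 family genes (−0.22) mostly to the left.

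Other genes of phagocytes were positive throughout. Disease-associated microglia genes had a median of 0.85 over 18 tested genes, all positive, beside 7449 of all 14012 genes tested. Of the 18, 1 was called, beside 1.20% of all genes tested called higher. This was Cd9, a tetraspanin, which rose to 1.69 times the control mean (adjusted p = 0.0432 by limma). Cd63 stood at 1.70 times (adjusted p = 0.0502 by limma). The 6 Fc receptor genes were all positive with a median of 0.74 and none called; Fcgr1 stood at 2.06 times and Fcgrt at 1.56 times the control mean.

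Markers of blood-borne and border cells that express these receptors were mostly low. Of 11 monocyte and perivascular macrophage markers 4 reached 1 FPKM. Their summed level was 5.11 to 10.1 FPKM in the knockdown samples and 2.79 to 3.60 FPKM in the controls. Ly6c2 was uneven, at 5.76, 3.78 and 0.502 FPKM in the knockdown samples and 1.04, 1.19 and 0.244 FPKM in the controls, with overlap. Ms4a7, Mrc1 and Pf4 stood at 2.20, 1.73 and 1.41 times their control means. Of 9 neutrophil markers with values, 2 reached 1 FPKM, with a summed level of 6.08 to 9.36 FPKM in the knockdown samples and 4.67 to 6.44 FPKM in the controls, and Csf3r, which microglia also express, accounted for 5.09 to 7.84 FPKM of it in the knockdown samples and for 3.33 to 3.83 FPKM in the controls. The other, S100a9, stood at 0.678 times the control mean with overlap. Below the filter, S100a8, Mpo, Camp, Ngp and Mmp8 were also below their control means, at 0.299 to 0.761 times. Retnlg and Cxcr2 were above theirs, at 1.24 and 2.12 times. Each of these genes below the filter overlapped between groups and had at most 18 reads in a sample. The neutrophil gene Cxcr2 was listed at 0 in 3 of the 6 samples. For B cells and dendritic cells 3 of 10 markers reached 1 FPKM, with a summed level of 25.3 to 52.3 FPKM in the knockdown samples and 22.7 to 33.5 FPKM in the controls. Bst2, which other cell types also express, made up 21.1 to 49.1 FPKM of it in the knockdown samples and 19.3 to 31.4 FPKM in the controls. The part of these cells in the receptor values was not tested.

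Across the 6 samples, genes outside the lists whose log2(FPKM + 1) followed the mean z-score of the 8 tested genes most closely included Vcl, Npepl1, Rasgrp3 and Gltp, with Pearson r of 0.993 to 0.994. These 6 points share the difference between the groups, so the likeness is a description. Of these 4, Npepl1 (log2 fold change 0.70, adjusted p = 0.0436 by limma) and Gltp (0.61, adjusted p = 0.0489 by limma) rose, while Vcl, which encodes the adhesion protein vinculin, stood at 5.27, 4.82 and 4.68 FPKM in the knockdown samples and 3.83, 3.95 and 3.80 FPKM in the controls.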

How the data were processed

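Hippocampal RNA of 6 samples (3 knockdown, 3 control) was sequenced after poly(A) enrichment, per the labels' protocols. The authors deposited 1 table of FPKM values per gene; the build was mm10, per the submitters' processing notes, and no aligner, counting program or strand setting is given in the sources used here. The 10 genes and all lists were chosen with earlier results of these data known.

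Genes whose mean reached 1 FPKM entered limma 3.58.1 (R 4.3.3) as log2(FPKM + 1) values (trend, two-sided, group as the only term), and p-values were Benjamini-Hochberg adjusted over all 14012 genes; calls needed an adjusted p under 0.05. Log2 fold changes are knockdown minus control, and the pseudocount of 1 understates changes of low genes. Ratios are of group means in FPKM.

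Reads were recovered by multiplying FPKM by the summed exon length in GENCODE M21 and dividing by the step of 1 read; in 90.9% to 91.1% of nonzero values the result was whole to within 0.01 reads, including those of 7 of the 10 genes. For Tlr13, Cd14 and Unc93b1, read numbers are approximate. Alternatives changed the pseudocount, filter, scaling, variance model, replicate block, unit and samples; voom at 10 reads and 2 covariate fits were chosen after seeing the data. Genes named besides the 10 and Sfswap were the 4 of smallest p in each list, not all of which are printed, and the 5 most alike in pattern, of which 1 is not reported here; genes below the filter, the overlapping Acaa1a, and Cnpy3, Slc15a4 and the 6 level astrocyte markers were named after their values were seen. Only the limma fit on log2(FPKM + 1) was tested on simulated data, and the voom and other alternative fits were not.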

Additional observations from a re-analysis of the deposited data

How the results depend on the processing

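The log2 fold changes of Tlr2, Tlr13, Cd14 and Unc93b1 stayed positive in every alternative fit that tested them. Calls were less stable. A filter at 5 FPKM called Unc93b1, the only 1 of the 10 tested there, beside 170 of 8186 genes called higher. Pseudocounts of 0.1 and 0.5 called Tlr2 and Unc93b1 of 8 tested, beside 290 and 274 of 14012 genes. Sample weights called Tlr2 of 8, beside 170 of 14012 genes. Voom called 3 of 8 at the main filter, beside 583 of 13993 genes, and 4 of 10 at 10 reads, beside 646 of 17022 genes. Leaving out a sample called 0 to 1 of 8 (Unc93b1, without knockdown sample 2, beside 160 of 14012 genes). Their median log2 fold change was 0.87 at 5 FPKM (1 gene), 0.63 at a pseudocount of 0.1, 0.66 and 0.82 with the voom fits, 0.24 with a microglia covariate and −0.027 after microglia subtraction.

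Sfswap, whose targeted gene level was tested, lost its call at −0.77 (filter at 0.1 FPKM, no filter, no variance trend, replicate block), −0.80 (quantile), −0.79 (same FPKM sum), −0.87 (choroid plexus covariate) and −0.62 (microglia covariate), and ranged from −0.84 to −0.73 when a sample was left out. The number of genes called higher was 0, and of genes called lower 0, with each of these except the same FPKM sum (1 and 2). Median-ratio scaling called 72 higher, pseudocounts of 0.1 and 0.5 called 290 and 274 higher and 64 lower each, the voom fits 583 and 646 higher and 123 and 122 lower, 5 FPKM 65 lower, and microglia subtraction 6078 lower. Leaving out a sample gave 0 to 160 higher and 0 to 30 lower.

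Microglia subtraction, which moved the median of all genes to −0.49, reversed Tlr3 (−0.060), Tlr7 (−0.15), Tlr9 (−0.16), Myd88 (−0.11), Hsp90b1 (−0.067), Ticam1 (−0.093), Peli1 (−0.28), Irf1 (−0.016), Irf5 (−0.037), Nfkbie (−0.046), Dusp1 (−0.057), Mavs (−0.093), Ifih1 (−0.17), Tmem119 (−0.0029), Vcl (−0.22), Rasgrp3 (−0.0022) and Mrc1 (−0.10). The microglia covariate reversed Tlr9 (−0.26), Ly86 (−0.046), Irf8 (−0.18), Dusp1 (−0.093), Ccl3 (−0.15) and Il1r1 (0.11). Cnpy3, at 0.014 in the report's fit, was −0.11 with the choroid plexus covariate, −0.013 with median-ratio scaling, −0.024 with the microglia covariate, −0.49 after microglia subtraction, −0.0084 with quantile normalization and −0.0073 with the same FPKM sum. Slc15a4 turned to −0.055 with the microglia covariate and −0.35 after subtraction, and Il33 to −0.38 after subtraction. With a sample left out, Cnpy3 ranged from −0.027 to 0.090, Il33 from −0.055 to 0.29 and the S100a9 log2 fold change from −0.54 to 0.036. Microglia subtraction also ended the calls of Vcam1 (0.48), Olfml3, Cd9, Gja1, Pecam1, Npepl1 and Gltp, and median-ratio scaling those of Olfml3, Aqp4, Npepl1 and Gltp. The cause was not tested. Samples of the same number did not deviate together (r = 0.05, 0.04 and −0.01), so the replicate block pairs numbers only. With 3 samples a group, genes under about 100 reads are known least precisely.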
